A study of Mus musculus with 24 samples.

Results

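This account follows 9 genes of striated muscle that are known to respond to mechanical load: Ankrd1, Ankrd2 and Ankrd23 of the muscle ankyrin repeat family, the Xin repeat genes Xirp1 and Xirp2, and the adaptor genes Sorbs2, Lmo7, Nrap and Synpo2l. They were taken by name from a count table of 23337 mouse genes, and were selected on their measured log2 ratios between these 4 groups, since earlier results of the same data were known. All values below therefore describe the genes, and their p-values place each gene within a fit across all genes. No threshold was applied in the choice. All 9 are in the table, and 8 passed the filter on low counts that left 12281 genes to test. Ankrd2 did not pass it. The mice were not subjected to any loading that the labels name, so the shared response to stretch is background and was not measured here.

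The libraries were made from cardiomyocytes that were isolated by Langendorff perfusion, in which a heart is digested through its own vessels, and purified by FACS. The mice were 4 weeks old and had received an adeno-associated virus (AAV) at postnatal day 1. The group called TKO had the genotype given in the labels as Mrfta-/-; Mrtfb-F/F; Rosa-Cas9/Cas9 and the virus AAV-Myocd-sgRNA, which carries guides against Myocd. The group called DKO had that same genotype and the virus AAV-Cre. The group called MKO had the genotype Rosa-Cas9/Cas9 and AAV-Myocd-sgRNA, and the group called Ctrl had Rosa-Cas9/Cas9 and AAV-Cre. Each group had 6 libraries, and all 4 groups thus carried Cas9 and an AAV. The labels name no Cre for TKO and MKO beside the guide virus, and they name neither the promoter of the Cre nor the share of cells reached by a virus. In MKO against Ctrl, and in TKO against DKO, guides and the labelled AAV-Cre therefore cannot be told apart. Whether each library stands for a mouse of its own is not stated, so p-values measure the spread between libraries, which may be technical.

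Myocardin (Myocd) and the myocardin-related transcription factors Mrtfa and Mrtfb, listed in the table as Mkl1 and Mkl2, are coactivators of serum response factor (SRF), which drives genes of the actin cytoskeleton and of the contractile apparatus. Ankyrin repeat proteins of muscle bind titin in the I-band of the sarcomere and can move to the nucleus, and Ankrd1 is a classical marker of load on the heart muscle. Xin proteins bind actin filaments at the intercalated disc, where cardiomyocytes are joined end to end. Sorbs2, Lmo7, Nrap and Synpo2l are scaffolds of the Z-disc and of adherens junctions, the points at which actin filaments are anchored.

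Total counts per library were 10210516 to 17184517 in TKO, 5830185 to 12157279 in DKO, 9731621 to 13201995 in MKO and 8017413 to 11496873 in Ctrl. Levels are given as CPM, the counts of a gene scaled to a common library total after normalisation by the trimmed mean of M-values. Mkl1 had 1.33 to 2.66 CPM in TKO, 1.4 to 2.77 in DKO, 6.39 to 11.9 in MKO and 4.81 to 11.3 in Ctrl. Mkl2 had 27.5 to 42.5 CPM in TKO, 26.6 to 39.3 in DKO, 44.1 to 59.2 in MKO and 44.8 to 55.9 in Ctrl. Mkl2, whose floxed allele needs Cre to be deleted, was lower in TKO than in Ctrl (log2 ratio −0.46 ± 0.11, SE, adjusted p = 0.0041, edgeR) and lower in DKO than in Ctrl (−0.57 ± 0.11, SE, adjusted p = 0.00603, edgeR), while TKO against DKO was 0.1 ± 0.11 (SE, adjusted p = 0.58, edgeR). TKO and DKO share the genotype by which they differ from Ctrl, and the part of Cre in the level of Mkl2 was not tested. Whether TKO also received Cre is not stated in the labels, so TKO against DKO may differ by the guides alone or by guides and Cre. Myocd had 175 to 323 CPM in TKO, 175 to 242 in DKO, 120 to 187 in MKO and 153 to 234 in Ctrl, and was higher in TKO than in Ctrl (log2 ratio 0.4 ± 0.13, SE, adjusted p = 0.0437, edgeR) and than in MKO (0.77 ± 0.13, SE, adjusted p = 0.000374, edgeR). Transcript counts do not show whether guides had edited the gene. In the alternatives, 2 libraries were left out together: DKO 1, whose mean correlation with its own group was 0.912 (0.96 to 0.984 in the other 23 libraries), and Ctrl 3, whose summed fibroblast, endothelial, smooth muscle and leukocyte markers were each the lowest of its group. Both are absent from the authors' deposited comparison tables: refits without them gave the log2 ratios of those tables to within 0.001 for 100% of genes in each comparison. Y-linked transcripts marked 3 of 6 TKO, 1 of 6 DKO, 4 of 6 MKO and 4 of 6 Ctrl libraries as male. In all groups the cells carried high levels of cardiomyocyte markers, none of which was at 0: the 15 markers summed to 133000 to 172000 CPM in TKO, 152000 to 182000 in DKO, 170000 to 204000 in MKO and 187000 to 229000 in Ctrl. In these bulk samples, fewer cells of a type and less RNA per cell cannot be told apart.

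The 9 genes lie on 6 chromosomes of the mm10 build, none of them on those of Mkl1 or Mkl2, and positions below are those of the deposited table. Ankrd1 lies on chromosome 19 from 36111965 to 36119844 on the minus strand, Ankrd2 on chromosome 19 from 42036038 to 42045110 on the plus strand, and Ankrd23 on chromosome 1 from 36530534 to 36535729 on the minus strand. Xirp1 lies on chromosome 9 from 120013755 to 120023598 on the minus strand and Xirp2 on chromosome 2 from 67446002 to 67526606 on the plus strand. Sorbs2 spans chromosome 8 from 45507788 to 45827906 and Lmo7 chromosome 14 from 101729928 to 101934693, both on the plus strand. Nrap lies on chromosome 19 from 56320041 to 56390035 and Synpo2l on chromosome 14 from 20659418 to 20668306, both on the minus strand. Exons of Sorbs2 overlapped the antisense gene D330022K07Rik over 84 bases and those of Nrap overlapped Habp2 over 49 bases, so reads of these stretches cannot be assigned to a strand. Those neighbours had 2.83 to 21.8 CPM and 0 to 0.247 CPM.

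Promoter sequence from RefSeq (build GRCm38.p6), taken as the 250 bases before an annotated start, was found for 8 of the 9 genes in 13 windows, with none for Xirp1. The windows were searched on both strands for the SRF site (CArG box) and the MEF2 site, both given by name only, for the MCAT element CATTCC to which TEAD factors bind, and for the GATA core AGATAA. The CArG box occurred in 0 of the 13 windows and in 1.47% of 32851 promoter windows of all genes, and the MEF2 site in 4 of the 13 and in 2.92% of all. The MCAT element occurred in 2 of the 13 windows against 12.6% of all, and the GATA core in 3 of the 13 against 9.99% of all. The windows of Ankrd1, Xirp2 and Ankrd23 are shown because these genes differed most among the TKO libraries below. That of Synpo2l is shown from the scaffold genes but does not stand for all of them. The windows of Sorbs2 and Nrap held none of these motifs, and those of Lmo7 a GATA core and a MEF2 site. A further window of Ankrd23, with the GATA core at 216 bases, and of Synpo2l, with a MEF2 site at 144 bases, is not shown. Sequences run 5′ to 3′ on the strand of the gene, and capitals mark motif matches. Ankrd1 (chr19:36119845-36120094, minus strand) has the MCAT element at 210 and 123 bases before the start and the GATA core at 47 bases, and Xirp2 (chr2:67445752-67446001, plus strand) has a MEF2 site at 74 bases. Ankrd23 (chr1:36535740-36535989, minus strand) has the MCAT element at 120 bases, and Synpo2l (chr14:20668355-20668604, minus strand) has a MEF2 site at 109 bases. No matches overlapped one another in these windows. A match is a description of letters, and binding was not measured.
Ankrd1: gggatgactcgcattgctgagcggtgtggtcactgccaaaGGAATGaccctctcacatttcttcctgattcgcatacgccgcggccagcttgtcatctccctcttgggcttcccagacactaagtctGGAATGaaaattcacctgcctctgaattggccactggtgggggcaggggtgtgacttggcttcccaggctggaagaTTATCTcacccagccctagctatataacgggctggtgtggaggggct
Xirp2: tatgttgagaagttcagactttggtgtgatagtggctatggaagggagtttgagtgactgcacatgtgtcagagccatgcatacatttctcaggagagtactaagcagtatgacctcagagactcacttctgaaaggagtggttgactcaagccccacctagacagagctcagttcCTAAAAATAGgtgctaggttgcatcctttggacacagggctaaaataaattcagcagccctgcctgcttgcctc
Ankrd23: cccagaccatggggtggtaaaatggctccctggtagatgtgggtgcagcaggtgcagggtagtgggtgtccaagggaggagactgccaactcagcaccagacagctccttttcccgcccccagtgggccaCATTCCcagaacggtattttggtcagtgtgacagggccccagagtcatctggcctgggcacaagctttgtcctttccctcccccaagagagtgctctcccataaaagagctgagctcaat
Synpo2l: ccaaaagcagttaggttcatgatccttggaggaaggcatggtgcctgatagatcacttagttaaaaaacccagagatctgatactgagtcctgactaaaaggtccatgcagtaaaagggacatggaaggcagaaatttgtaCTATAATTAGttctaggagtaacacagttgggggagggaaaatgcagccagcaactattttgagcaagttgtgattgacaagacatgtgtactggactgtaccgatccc

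Levels were compared between genes as RPKM, which divides CPM by the exon length in kilobases. In Ctrl, mean RPKM was highest for Ankrd1 (346 ± 79.5, SD, n = 6), then Ankrd23 (153 ± 58.6), Xirp1 (145 ± 30.5), Lmo7 (130 ± 7.94), Nrap (92.4 ± 8.65), Sorbs2 (88.5 ± 9.38) and Synpo2l (72.1 ± 10.3). Xirp2 was far below at 8.83 ± 2.2 RPKM. The libraries of each gene overlapped in range those of its neighbour in this order, apart from Lmo7 (122 to 142 RPKM) over Nrap (81.9 to 105 RPKM) and Synpo2l (61.4 to 84.8 RPKM) over Xirp2 (6.76 to 13.1 RPKM). Ankrd1 (217 to 451 RPKM) overlapped Ankrd23 only through Ctrl 3, the library with 267 RPKM of Ankrd23. In TKO the order was Ankrd1 (1190 ± 625 RPKM), Ankrd23 (231 ± 46.1), Lmo7 (192 ± 26.6), Sorbs2 (168 ± 17.2), Xirp1 (147 ± 12), Nrap (132 ± 13.4), Synpo2l (103 ± 9.56) and Xirp2 (14.6 ± 4.67). In TKO the libraries of neighbours overlapped in range, apart from Ankrd1 (551 to 1960 RPKM) over Ankrd23 (168 to 309 RPKM), Nrap (117 to 153 RPKM) over Synpo2l (90.2 to 114 RPKM) and Synpo2l over Xirp2 (9.76 to 21.8 RPKM). Xirp1 was thus the third in Ctrl and the fifth in TKO, where the means of Lmo7 and Sorbs2 exceeded it.

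**Figure D1:**
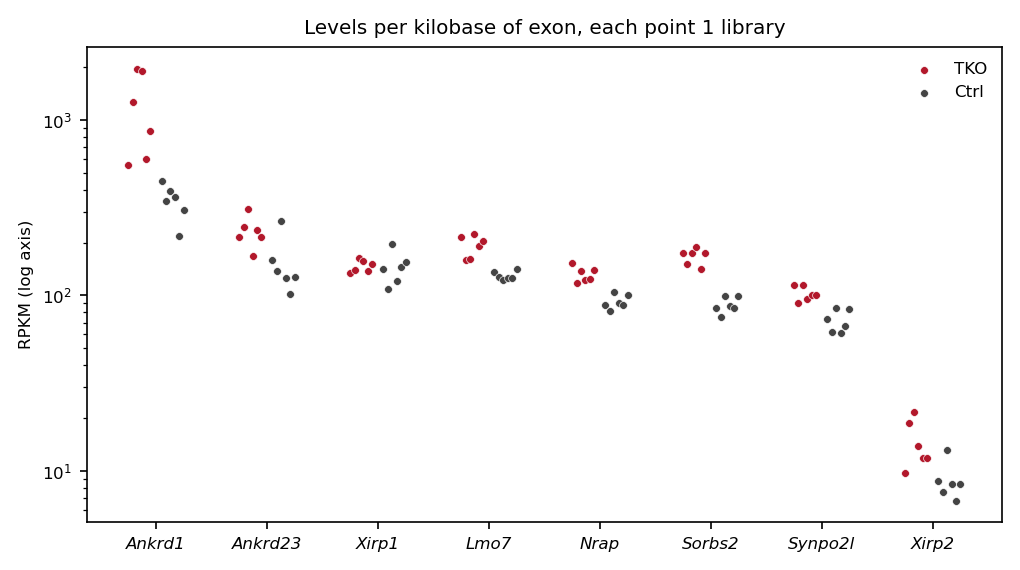
RPKM on a log axis for the 8 tested genes, TKO libraries to the left of Ctrl libraries, each point 1 library. Ankrd1 spans 551 to 1960 RPKM in TKO and 217 to 451 RPKM in Ctrl, and Xirp2 lies lowest in both groups.

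Ankrd1, whose product (CARP) binds titin and represses transcription of some cardiac genes, differed most. It had 972, 2230, 3450, 3340, 1050 and 1520 CPM in the 6 TKO libraries, against 796, 606, 693, 646, 384 and 543 CPM in the 6 Ctrl libraries. Every TKO library lay above every Ctrl, DKO and MKO library. The lowest, median and highest values were 572, 729 and 891 CPM in DKO and 517, 639 and 664 CPM in MKO, within or just above the Ctrl range. The ratio of TKO to Ctrl was 3.43-fold, a log2 ratio of 1.78 ± 0.25 (SE, adjusted p = 1.97e-05, edgeR quasi-likelihood test with Benjamini-Hochberg adjustment over all tested genes). TKO also had the widest spread, a coefficient of variation of 52.6%, against 16.6% in DKO, 8.74% in MKO and 23% in Ctrl.

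Ankrd23 (DARP), the relative found mostly in heart and skeletal muscle, had lowest, median and highest values of 328, 441 and 603 CPM in TKO and 200, 259 and 521 CPM in Ctrl. The groups overlapped through Ctrl 3, at 521 CPM, and the other 5 Ctrl libraries reached 310 CPM. The log2 ratio of TKO to Ctrl was 0.59 ± 0.17 (SE, adjusted p = 0.0211, edgeR). It was 0.82 without Ctrl 3 and DKO 1 (adjusted p = 8.33e-05, edgeR). The call was lost without Ctrl 5, Ctrl 6 or TKO 3 (adjusted p = 0.0546, 0.0528 and 0.0606) and in a fit of these 2 groups alone (adjusted p = 0.0581). DKO had 237 to 375 CPM and MKO 246 to 321 CPM.

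Ankrd2 (Arpp), the third of the family and known mainly from skeletal muscle, was close to absent. It had 8 counts summed over the 6 TKO libraries, 1 in DKO, 6 in MKO and 1 in Ctrl, and at most 5 in any library. These sums correspond to 0.108 CPM in TKO (exact 95% Poisson interval 0.0464 to 0.212), 0.016 in DKO (0.000404 to 0.089), 0.0873 in MKO (0.032 to 0.19) and 0.0183 in Ctrl (0.000462 to 0.102). The intervals cover counting error only and overlap between all groups. No fold or test is given.

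The 2 Xin genes parted. Xirp1 had lowest, median and highest values of 780, 851 and 957 CPM in TKO and 635, 842 and 1150 CPM in Ctrl, with the TKO libraries inside the Ctrl range. Its log2 ratio of TKO to Ctrl was 0.02 ± 0.18 (SE, adjusted p = 0.949, edgeR), and −0.03 with sex as a term. Xirp1 had 261 to 817 CPM in DKO and 553 to 802 CPM in MKO. The log2 ratios to Ctrl were −0.39 ± 0.18 in DKO (SE, adjusted p = 0.464, edgeR) and −0.32 ± 0.18 in MKO (SE, adjusted p = 0.786, edgeR), so neither passed. In both groups, 0 of 6 libraries exceeded the Ctrl mean of 846 CPM, which was raised by Ctrl 3 at 1150 CPM. The share of all genes for which this held was not computed. Without Ctrl 3 and DKO 1 the log2 ratios were −0.13 in DKO (adjusted p = 0.78, edgeR) and −0.23 in MKO (adjusted p = 0.71, edgeR).

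Xirp2 had 117, 225, 261, 165, 141 and 141 CPM in the TKO libraries, against 105, 90.5, 156, 101, 80.9 and 100 CPM in the Ctrl libraries. All TKO libraries were above the Ctrl mean and 3 of 6 above the highest Ctrl library, which was Ctrl 3. The log2 ratio was 0.73 ± 0.17 (SE, adjusted p = 0.00381, edgeR). MKO was the lowest group, with 73.2, 81.6 and 88.4 CPM as lowest, median and highest, and DKO had 103, 108 and 146 CPM. Every DKO library thus lay above every MKO library, which held for 0.798% of all tested genes in that direction. The log2 ratio of DKO to MKO was 0.53 ± 0.17 (SE, adjusted p = 0.145, edgeR) and did not pass in the fit of all groups. It passed in a fit of these 2 groups alone (0.55, adjusted p = 0.0368, edgeR). It did not pass without Ctrl 3 and DKO 1 (0.57, adjusted p = 0.0743, edgeR) or when single libraries were left out (adjusted p = 0.0889 to 0.293). In the authors' deposited DESeq2 table, which also leaves out DKO 1, the ratio was 0.56 with adjusted p = 8.18e-06. Relative to Ctrl, the log2 ratio of Xirp2 was 0.15 ± 0.17 in DKO (SE, adjusted p = 0.806, edgeR) and −0.39 ± 0.17 in MKO (SE, adjusted p = 0.772, edgeR), and neither passed.

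The 4 scaffold genes shared a narrow shape: close levels in DKO, MKO and Ctrl, and TKO libraries above all of them. Sorbs2 (ArgBP2), which links actin to signalling proteins at the Z-disc through SH3 domains, had 1070, 925, 1060, 1150, 867 and 1070 CPM in the TKO libraries, against 517, 459, 605, 531, 519 and 608 CPM in the Ctrl libraries. Every TKO library lay above the highest of the other 3 groups, since DKO had 304 to 647 CPM and MKO 468 to 633 CPM. The log2 ratio of TKO to Ctrl was 0.92 ± 0.14 (1.89-fold, SE, adjusted p = 3.69e-05, edgeR), the second largest of the 8.

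Lmo7, a LIM and PDZ domain protein of adherens junctions, had 1310, 979, 987, 1370, 1170 and 1240 CPM in the TKO libraries, against 833, 777, 747, 761, 763 and 869 CPM in the Ctrl libraries. No TKO library overlapped a Ctrl, DKO or MKO library. DKO had 453 to 903 CPM and MKO 827 to 925 CPM. The log2 ratio of TKO to Ctrl was 0.57 ± 0.12 (SE, adjusted p = 0.00193, edgeR).

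Nrap, the nebulin-related anchoring protein that joins actin filaments to junctions during myofibril assembly, had lowest, median and highest values of 643, 718 and 840 CPM in TKO and 450, 492 and 577 CPM in Ctrl. DKO had 327 to 584 CPM and MKO 420 to 532 CPM, again below all TKO libraries. Its log2 ratio was 0.52 ± 0.11 (SE, adjusted p = 0.0023, edgeR). Synpo2l (CHAP), a Z-disc protein that binds alpha-actinin, had 354, 397 and 447 CPM in TKO and 241, 276 and 333 CPM in Ctrl. DKO had 186 to 321 CPM and MKO 229 to 348 CPM, so the lowest TKO library lay just above the highest MKO library. Its log2 ratio was 0.51 ± 0.12 (SE, adjusted p = 0.00522, edgeR).

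**Figure D2:**
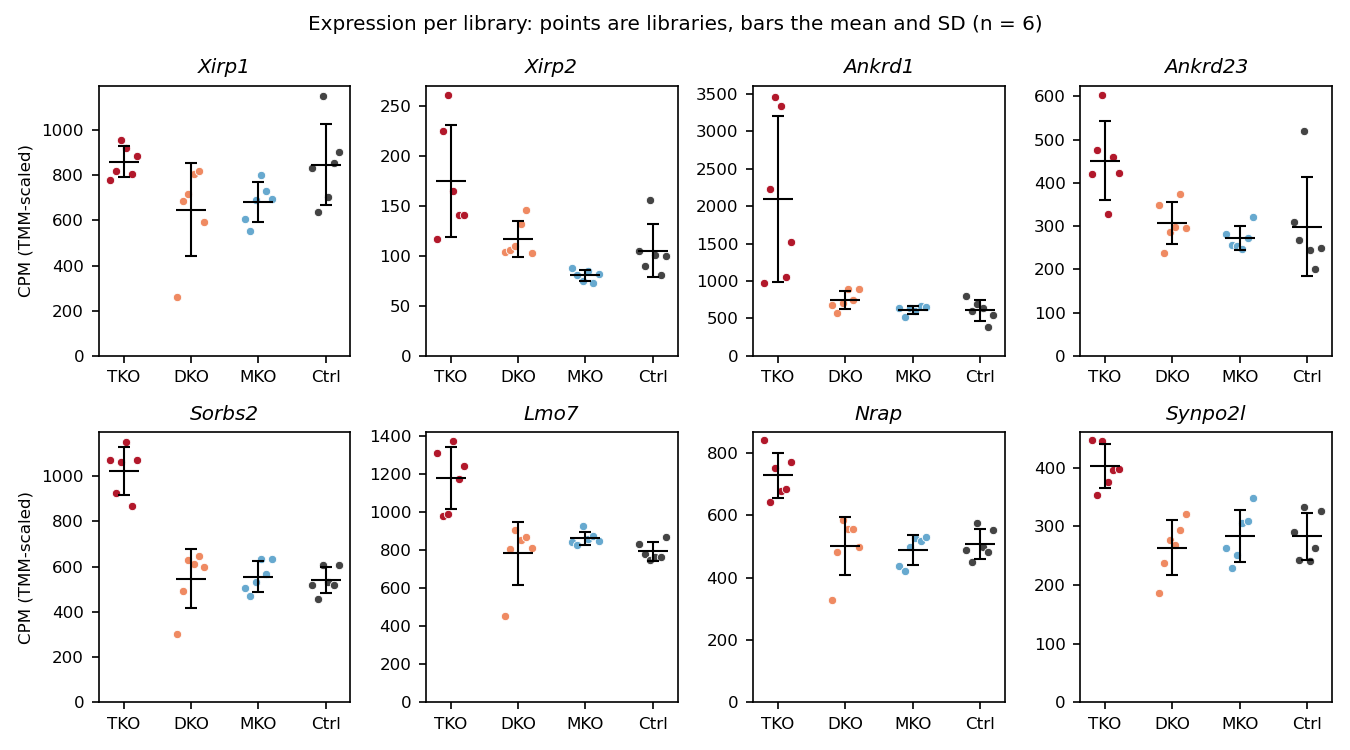
CPM of each library for the 8 tested genes, with a panel for each gene and the groups TKO, DKO, MKO and Ctrl from left to right; points are libraries and bars the mean and SD (n = 6). Ankrd1, Sorbs2, Lmo7, Nrap and Synpo2l have all TKO libraries above all Ctrl libraries, and the single low point of DKO in Xirp1, Sorbs2, Lmo7 and Nrap is DKO 1.

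Relative to Ctrl, TKO was higher in 7 of the 8 tested genes and lower in 0, while 8.14% of all tested genes were called higher and 5.98% lower. Since these genes were chosen with that comparison known, nothing is read from the excess. Their median log2 ratio was 0.58, against −0.01 over all tested genes. In 5 of the 8 (Ankrd1, Sorbs2, Lmo7, Nrap and Synpo2l) all TKO libraries lay above all Ctrl libraries, as for 4.76% of all tested genes. The number called higher was also 7 without Ctrl 3 and DKO 1, and the authors' deposited table gives 7.

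In neither DKO nor MKO did a gene of this set pass the threshold against Ctrl. In DKO against Ctrl, 0 of 8 were called by edgeR and 0 by DESeq2, beside 0.635% of all tested genes by edgeR, and 1 (Xirp1) had an unadjusted p under 0.05, as had 10.5% of all tested genes. The log2 ratios ran from −0.39 (Xirp1) to 0.29 (Ankrd1) with a median of 0. In MKO against Ctrl, 0 of 8 were called by edgeR and 0 by DESeq2, beside 0% of all tested genes by edgeR, and 1 (Xirp2) had an unadjusted p under 0.05, as had 6.2% of all. Its log2 ratios ran from −0.39 (Xirp2) to 0.12 (Lmo7). With standard errors of 0.11 to 0.24, changes smaller than those in TKO, and also some as large, could be missed. The adjustment is stricter in a comparison where fewer genes are called. A gene that did not pass was not shown to be equal. In DKO against MKO, 0 of 8 were called by edgeR and 0 by DESeq2 on all 24 libraries, beside 0.79% of all tested genes by edgeR. By edgeR 1 (Xirp2) was under an unadjusted p of 0.05, as were 15.3% of all. The authors' deposited DESeq2 table, which leaves out DKO 1, has 1 of the genes higher (Xirp2).

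**Figure D3:**
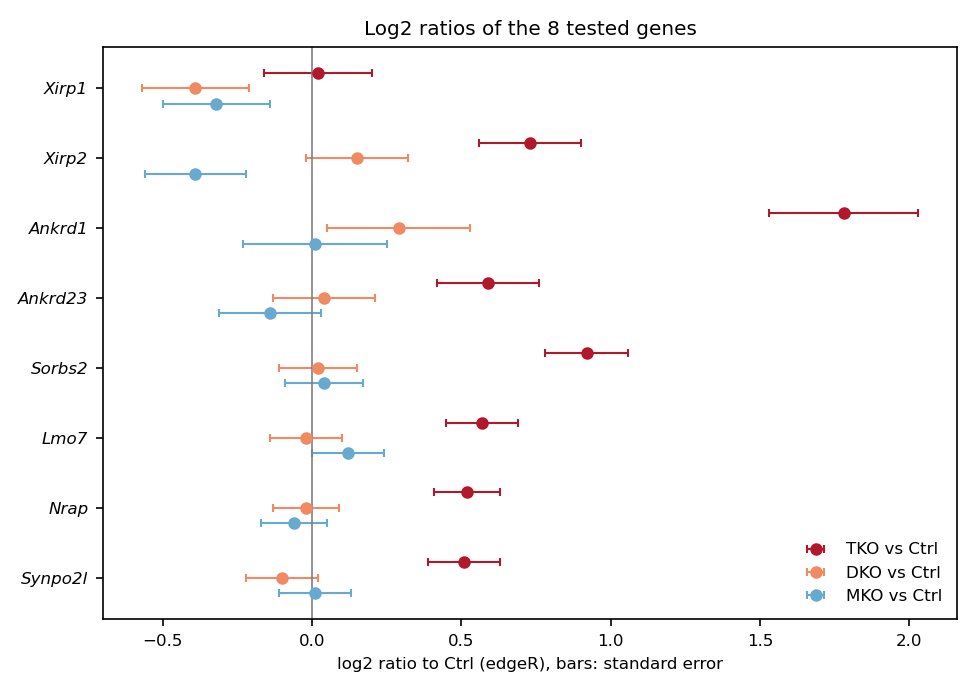
Log2 ratios to Ctrl of the 8 tested genes in TKO, DKO and MKO, from the edgeR fit; bars are standard errors. The 3 comparisons share the same Ctrl libraries, and TKO lies at 0.51 or above for all genes but Xirp1 (0.02).

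Set against DKO, TKO was higher in 6 of 8 genes and lower in 0, beside 4.16% of all tested genes called higher. The log2 ratios were 1.49 ± 0.25 for Ankrd1 (SE, adjusted p = 0.000452, edgeR), 0.9 ± 0.14 for Sorbs2 and 0.54 to 0.61 for Nrap, Xirp2, Lmo7 and Synpo2l. In 5 genes (Ankrd1, Sorbs2, Lmo7, Nrap and Synpo2l) all TKO libraries lay above all DKO libraries, as for 2.55% of all tested genes. Ankrd23 (0.56 ± 0.17, SE, adjusted p = 0.0528, edgeR) and Xirp1 (0.41 ± 0.18, SE, adjusted p = 0.174, edgeR) did not pass. Without Ctrl 3 and DKO 1, Ankrd23 passed (adjusted p = 0.00384) and 7 of 8 were called. In a fit of these 2 groups alone Xirp2 (adjusted p = 0.119) and Lmo7 (0.0671) did not pass, leaving 4. The call of Xirp2 was also lost without DKO 2, DKO 3, DKO 6, TKO 2, TKO 3 or TKO 4 (adjusted p = 0.0557 to 0.0981), and Ankrd23 passed without Ctrl 3, Ctrl 5, DKO 1, DKO 5 or TKO 4 (adjusted p = 0.00903 to 0.0399).

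Set against MKO, TKO was higher in 7 of 8 genes and lower in 0, beside 6.48% of all tested genes called higher. Xirp2 had its largest ratio here, 1.11 ± 0.17 (2.16-fold, SE, adjusted p = 6.29e-05, edgeR), with no overlap between TKO and MKO libraries. That held for 7 of the 8 genes, all but Xirp1, and for 4.64% of all tested genes. Ankrd1 had 1.76 ± 0.25, Sorbs2 0.88 ± 0.14 and Ankrd23 0.73 ± 0.17 (SE). Xirp1 did not pass (0.34 ± 0.18, SE, adjusted p = 0.227, edgeR), in the fit of all groups. It passed in a fit of these 2 groups alone (0.34, adjusted p = 0.018, edgeR), without Ctrl 3 and DKO 1 (adjusted p = 0.0134) and without DKO 1 alone (adjusted p = 0.0325). The authors' deposited table gives it as 0.35 with adjusted p = 0.00337.

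Whether the groups given the guide virus differed from those given AAV-Cre by another amount in the Mrtf mutant mice (TKO minus DKO) than in the others (MKO minus Ctrl) was tested as the difference of the 2 log2 ratios. The difference was positive for all 8 tested genes, from 0.47 (Lmo7) to 1.47 (Ankrd1), with a median of 0.71 against −0.02 over all tested genes. Only Sorbs2 passed (0.86 ± 0.19, SE, adjusted p = 0.0418, edgeR), beside 0.399% of all tested genes called higher. Ankrd1 (1.47 ± 0.34, SE, adjusted p = 0.0516, edgeR), Xirp2 (0.97 ± 0.23, SE, adjusted p = 0.0654, edgeR) and Nrap (0.6 ± 0.16, SE, adjusted p = 0.0951, edgeR) did not. Xirp1 had 0.73 ± 0.26 (SE), with mean levels of 860 CPM in TKO, 647 CPM in DKO, 679 CPM in MKO and 846 CPM in Ctrl. The number of the 8 that passed depended on the processing: 2 without Ctrl 3 and DKO 1 (Sorbs2, adjusted p = 0.013, and Nrap, adjusted p = 0.0457), 5 with DESeq2, and 0 to 5 when single libraries were left out. The call of Sorbs2 was lost without TKO 1, TKO 3, TKO 4, TKO 6, DKO 2, DKO 6, MKO 1, MKO 2, MKO 5, Ctrl 3, Ctrl 4 or Ctrl 6 (adjusted p = 0.0502 to 0.0872).

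The 6 TKO libraries were not alike. TKO 2, TKO 3 and TKO 4 had 2230, 3450 and 3340 CPM of Ankrd1, while TKO 1, TKO 5 and TKO 6 had 972, 1050 and 1520 CPM. Nppa, which encodes atrial natriuretic peptide and is a marker of load and of atrial cells, had 1370, 2540 and 3920 CPM in TKO 2, TKO 3 and TKO 4, and 329, 109 and 484 CPM in TKO 1, TKO 5 and TKO 6. Both genes were thus high in the same 3 libraries. Nppa reached at most 512 CPM in DKO, 198 CPM in MKO and 403 CPM in Ctrl. Nppb, which encodes the related brain natriuretic peptide, had 173, 258 and 133 CPM in TKO 2, TKO 3 and TKO 4, and 71.4, 36.7 and 81.2 CPM in TKO 1, TKO 5 and TKO 6, against 19.2 to 189 CPM in Ctrl.

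The other 9 atrial markers summed to 178, 188 and 119 CPM in TKO 2, TKO 3 and TKO 4 and to 153, 150 and 127 CPM in TKO 1, TKO 5 and TKO 6. Their sum ranged from 119 to 188 CPM in TKO, 149 to 280 in DKO, 101 to 173 in MKO and 129 to 317 in Ctrl. TKO 2 and TKO 3, both high in Ankrd1, had the highest sums of TKO, above 3 of the 6 Ctrl libraries, while TKO 4, also high in Ankrd1, had the lowest of TKO. The part of atrial cells in these values was not tested. Myl7, an atrial myosin light chain, had 0.0871 to 9.77 CPM in TKO and 1.33 to 57.1 CPM in Ctrl. Sln, also on the list, had 0 to 2.36 CPM in TKO and 0.102 to 10.7 CPM in Ctrl. The sums in TKO thus came mostly from other markers of the list.

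The other genes did not all follow this split, which was drawn from the values themselves. Across it, log2 CPM of Ankrd1 rose in steps of like size: 10.04 in TKO 5, 10.57 in TKO 6, 11.13 in TKO 2 and 11.7 in TKO 4. Relative to the Ctrl mean, the log2 values of Ankrd1 were 1.9, 2.53 and 2.48 in TKO 2, TKO 3 and TKO 4, and 0.7, 0.82 and 1.35 in TKO 1, TKO 5 and TKO 6. Xirp2 was highest in TKO 3 (1.33) and TKO 2 (1.12) on that scale. Lmo7 was lowest in those same libraries (0.32 in TKO 3 and 0.31 in TKO 2) and Ankrd23 was lowest in TKO 4 (0.21). Sorbs2 stayed between 0.69 and 1.1. All genes but Xirp1 had positive values in all 6 TKO libraries.

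**Figure D4:**
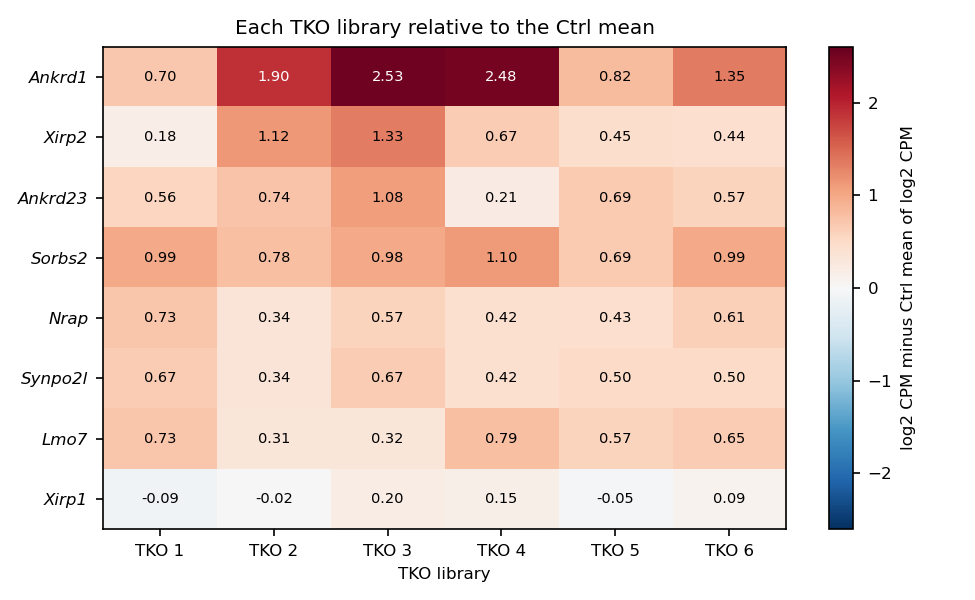
Log2 CPM of each TKO library minus the mean log2 CPM of Ctrl, for the 8 tested genes in rows and the 6 TKO libraries in columns. Ankrd1 ranges from 0.7 in TKO 1 to 2.53 in TKO 3, while Sorbs2 stays between 0.69 and 1.1 and Xirp1 between -0.09 and 0.2.

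How the genes vary together within groups was described by the correlation of their deviations from the group means over all 24 libraries, for 28 pairs of genes, with two-sided permutation p-values (100000 permutations within groups, adjusted over the pairs). Of these pairs, Sorbs2 and Nrap moved together most closely (Pearson r = 0.91, Spearman rho = 0.83, permutation p = 2e-05 and 3e-05, adjusted 0.00028 and 0.00056). The Pearson r was 0.79 without the 2 libraries farthest in Sorbs2, and 0.77 over the 22 libraries without Ctrl 3 and DKO 1 (permutation p = 0.00013, adjusted 0.00364). Nrap and Synpo2l (r = 0.81, rho = 0.76, permutation p = 2e-05 and 4e-05, adjusted 0.00028 and 0.00056) and Sorbs2 and Synpo2l (r = 0.81, rho = 0.73, permutation p = 5e-05 and 0.00029, adjusted 0.000467 and 0.00269) were close behind, each at 0.7 without the 2 farthest libraries. Xirp1 had values as high with 2 of these 3 genes.

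Xirp1 varied with Sorbs2 within groups (r = 0.89, rho = 0.75, permutation p = 0.00013 and 0.00045, adjusted 0.00091 and 0.00269), although it was not higher in TKO. That value was 0.7 without the 2 farthest libraries and 0.67 over 22 libraries (permutation p = 0.00215, adjusted 0.015). With Nrap, Xirp1 had r = 0.86 (rho = 0.72, permutation p = 0.00021 and 0.00048, adjusted 0.00118 and 0.00269), with 0.67 without the 2 farthest libraries and 0.59 over 22 libraries (permutation p = 0.00576, adjusted 0.0323). With Synpo2l it had r = 0.7 (rho = 0.58, permutation p = 0.00241 and 0.00662, adjusted 0.0107 and 0.0265), with 0.51 without the 2 farthest libraries and 0.43 over 22 libraries (permutation p = 0.0797, adjusted 0.203). Lmo7 and Sorbs2 had r = 0.78 (rho = 0.6, permutation p = 0.00982 and 0.00565, adjusted 0.0344 and 0.0264), which rested in part on DKO 1: r was 0.46 without DKO 1 and MKO 2 and 0.42 over 22 libraries (permutation p = 0.0585, adjusted 0.182). Ankrd1 had no such relation to Nrap (r = −0.01, rho = −0.02, permutation p = 0.956 and 0.916, adjusted 0.956 and 0.916). Its highest value was with Xirp2 (r = 0.68, rho = 0.66, permutation p = 0.0139 and 0.00774, adjusted 0.041 and 0.0271), at 0.61 without TKO 3 and Ctrl 3 and at 0.71 over 22 libraries (permutation p = 0.0185, adjusted 0.0742). The libraries differ in depth and in cell markers, as given above and below, whose part was not tested.

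Among all other tested genes, those most like each member over the 24 libraries were named by Pearson r of log2 CPM, which includes the difference between groups. For Ankrd1 they were Tgfb2 (0.93), Edn3 (0.92) and Lrp8 (0.92), and for Xirp2 they were Spsb4 (0.86), Edn3 (0.85) and Lrp8 (0.85). For Ankrd23 they were Inpp5j (0.87), Tnfrsf12a (0.87) and Spsb4 (0.86). For Sorbs2 they were Slc12a4 (0.98), Irs1 (0.95) and Clic5 (0.94), and Slc12a4 also led for Nrap (0.93) and Synpo2l (0.91). The next for Nrap were Herc3 (0.92) and Abcc1 (0.92), and for Synpo2l Napepld (0.91) and Scin (0.9). For Lmo7 they were Hif1a (0.95), Gmfb (0.94) and Mtap4 (0.94), and for Xirp1 Lamb2, Ktn1 and Usp28 (0.91 each). Ankrd1 and Xirp2 thus shared Edn3 and Lrp8, and Sorbs2, Nrap and Synpo2l shared Slc12a4. Within groups the r of Sorbs2 with Slc12a4 was 0.91, and that of Ankrd1 with Tgfb2 was 0.74. It was 0.91 for Xirp1 with Usp28 and 0.9 for Lmo7 with Hif1a. Genes outside the set, picked as the most like, thus reached values as high as the pairs within it.

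Related genes were read from lists that were likewise chosen with earlier results known, each described by its count in TKO against Ctrl. The counts of all lists below stand beside 8.14% of all tested genes called higher and 5.98% called lower. Without Ctrl 3 and DKO 1, calls over all genes rose from 1000 higher and 734 lower to 1358 and 1269. Of 11 tested paralogs of the 9 genes, 3 were higher and 0 lower, with a median log2 ratio of 0.3 (4 and 1 without Ctrl 3 and DKO 1). They included Synpo, an actin-bundling relative of Synpo2l (1.44 ± 0.16, SE, adjusted p = 8.23e-07, edgeR), and Sorbs3, a relative of Sorbs2 (1.53 ± 0.37). Synpo had 135 to 219 CPM in TKO and 44.7 to 92.5 CPM in Ctrl, without overlap, as for 4.76% of all tested genes. Sorbs3 had 22.5 to 109 CPM in TKO and 5.47 to 40.2 CPM in Ctrl.

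Of 29 tested partners of the Z-disc and titin, 5 were higher and 5 lower, with a median of 0.14. Fhl1, a LIM protein that binds titin, was higher (1.32 ± 0.15, SE, adjusted p = 7.62e-07, edgeR), as was Fbxo32, a muscle ubiquitin ligase (1.13 ± 0.17). Pdlim7, a Z-disc adaptor, was lower (−1.47 ± 0.18, SE, adjusted p = 2.48e-06, edgeR), as was Trim55, a titin-binding ubiquitin ligase (−0.67 ± 0.09). Without Ctrl 3 and DKO 1, 10 of this list were higher and 6 lower. These partners thus did not share a single direction.

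Of 31 tested genes of the intercalated disc and adhesion sites, 4 were higher and 2 lower, with a median of 0.13. Over all tested genes, 8.14% were called higher and 5.98% lower. Without Ctrl 3 and DKO 1, 8 of this list were higher and 3 lower. Zyx, which encodes the adhesion protein zyxin, was higher (0.97 ± 0.15, SE, adjusted p = 8.59e-05, edgeR), as were Ctnna1, encoding alpha-catenin (0.42 ± 0.12), and Dsp, encoding desmoplakin (0.35 ± 0.08). Vasp, encoding an actin-elongating protein of adhesion sites, was lower (−0.69 ± 0.15).

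Of 24 tested genes of the response to stretch and hypertrophy, 9 were higher and 0 lower, with a median of 0.42. They included Tgfb2, encoding a growth factor (1.65 ± 0.15, SE, adjusted p = 3.31e-08, edgeR), Rcan1, encoding an inhibitor of calcineurin (1.09 ± 0.13), Tnfrsf12a, encoding a cytokine receptor (1.27 ± 0.21), and Fhl1. Nppa had 2.92 ± 0.78 (SE, adjusted p = 0.0118, edgeR), and Nppb did not pass (0.4 ± 0.44, SE, adjusted p = 0.616, edgeR). Of 18 tested targets of YAP and TEAD, 2 were higher (Nt5e, an ectoenzyme, 1.75 ± 0.18, and Tgfb2) and 0 lower. Their median was 0.06, and 8.14% of all tested genes were called higher. Of 23 tested regulators, 4 were higher and 3 lower, but the list holds the mutated or targeted genes themselves. The lower ones were Mkl1 (−1.86 ± 0.21), Mkl2 (−0.46 ± 0.11) and Srf (−0.93 ± 0.15, SE, adjusted p = 6.97e-05, edgeR). The higher ones included Myocd (0.4 ± 0.13) and Yap1, encoding the YAP coactivator (0.41 ± 0.08, SE, adjusted p = 0.0014, edgeR). Srf thus fell in the same TKO libraries, to 38.3 to 50.9 CPM against 69.4 to 96.6 CPM in Ctrl.

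Levels of cell type markers moved with the groups as well. Of 15 cardiomyocyte markers, 0 were higher and 8 lower in TKO than in Ctrl, with a median log2 ratio of −0.52 (0 and 9 without Ctrl 3 and DKO 1), so TKO was lower in markers of the same cells in which 7 of the 8 tested genes were higher. Ckm, muscle creatine kinase (−1.62 ± 0.2, SE, adjusted p = 4.76e-06, edgeR), and Actc1, cardiac actin (−1.17 ± 0.19), were among them. Of 11 tested fibroblast markers 2 were higher and 0 lower, but the median log2 ratio of the list was −0.17. Their summed level was 459 to 766 CPM over 12 markers in TKO and 234 to 835 CPM in Ctrl. Fbln1, a matrix gene, was 1 of these 2 (1.89 ± 0.23, SE, adjusted p = 3.45e-06, edgeR), while Gsn was the other (0.48 ± 0.14). Of 15 endothelial markers none was called by edgeR (0 higher, 0 lower, with 4 lower without Ctrl 3 and DKO 1). Their median log2 ratio was −0.61, with sums of 193 to 788 CPM in TKO and 188 to 1940 CPM in Ctrl. Of 11 tested markers of smooth muscle and pericytes 1 was higher (Cspg4, 0.86 ± 0.2) and 0 lower, but their median log2 ratio was −0.58. Sums of this list were 421 to 687 CPM in TKO and 481 to 831 CPM in Ctrl. Of 7 tested leukocyte markers 0 were called, with a median of 0.7 and sums of 11.9 to 17.2 CPM in TKO and 5.97 to 16.9 CPM in Ctrl. Of 8 tested atrial markers 1 was higher (Nppa), with a median of −0.53 over the list. No marker of these lists was at 0 in all libraries of a group. The part of cell makeup in the values of the members was not tested.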

How the data were processed

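Polyadenylated RNA of 24 cardiomyocyte libraries (SMART-Seq v4 and Nextera XT, per the labels' protocols) was analysed from the authors' deposited table of raw read counts per gene, with gene positions and exon lengths in the same table. STAR, featureCounts, DESeq2 and mm10 are named in the submitters' processing notes, without versions or settings, and counting without strand is assumed because the kit does not mark strand. The authors also deposited 6 tables of DESeq2 comparisons with log2 fold changes, p-values and adjusted p-values, per the file headers. These serve as a second source and are named where printed.

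From the counts, CPM with TMM scaling, RPKM and log2 CPM (prior count 2) were computed. The test was the quasi-likelihood test of edgeR 4.0.16 in R 4.3.3 on all 24 libraries with a term for each group, after filterByExpr (minimum count 10) had left 12281 genes. P-values were adjusted by Benjamini-Hochberg over all tested genes, and 0.05 was the threshold for a call. The SE was the log2 ratio divided by the square root of F. The fit covered 7 comparisons (6 pairs of groups and the difference of differences). It was tested on simulated counts. No 2 libraries of a group (60 pairs) agreed within sampling noise.

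The 9 genes and all lists were chosen with earlier results of these data known. Named by rule were the 9 genes, up to 4 genes of each list with the smallest adjusted p in TKO against Ctrl, Myocd, Mkl1, Mkl2, Srf, Nppa and Nppb, and the 3 genes most like each member. Not every gene so named is reported here. Alternatives were DESeq2 1.42.0 size factors (RLE) and its test, no filter, sex as a term, the replicate number as a block, 22 libraries, only the groups compared, and leaving out each library.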

Additional observations from a re-analysis of the deposited data

Results flagged for a closer look

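DKO 1 stood apart from the other 5 DKO libraries in 4 of the 8 tested genes. It had 261 CPM of Xirp1 (593 to 817 CPM in the others), 304 CPM of Sorbs2 (491 to 647 CPM), 453 CPM of Lmo7 (803 to 903 CPM) and 327 CPM of Nrap (483 to 584 CPM). On log2 CPM, its gap to the nearest library, as a share of the whole range of the group, was 0.72, 0.63, 0.83 and 0.67 in this order, above Dixon's critical value. Of 32 sets of gene and group examined, these 4 passed it on the log2 scale. Chance gives about 1 in 20 such sets if they are independent. These 4 share the library DKO 1 and genes that vary together within groups, so they are not 4 separate events. On the CPM scale 3 sets passed it: Lmo7 with DKO 1 lowest (0.777), Xirp2 with Ctrl 3 highest at 156 CPM (0.683) and Ankrd23 with Ctrl 3 highest at 521 CPM (0.657). Xirp1 (0.598), Sorbs2 (0.545) and Nrap (0.607) with DKO 1 lowest did not pass on that scale. DKO 1 was also low in summed fibroblast markers (296 CPM, against 491 to 845 CPM in the others), endothelial markers (376 CPM, against 715 to 1000 CPM) and smooth muscle and pericyte markers (204 CPM, against 473 to 651 CPM). It was the highest of its group in summed atrial markers (665 CPM, against 160 to 549 CPM), of which Nppa made up 512 CPM. Without Nppa the sum of DKO 1 was 153 CPM, near the low end of the DKO range of 149 to 280 CPM. DKO 1 also had the lowest total count of all 24 libraries (5830185). Its cardiomyocyte markers summed to 182000 CPM, against 152000 to 177000 CPM in the others. The part of these differences in the values of the 4 genes was not tested.

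For Sorbs2, TKO minus DKO exceeded MKO minus Ctrl by 0.86 on the log2 scale (adjusted p = 0.0418, edgeR). This passed narrowly: the call was lost when any of 12 of the 24 libraries was left out (adjusted p = 0.0502 to 0.0872). Sorbs2 was higher than every Ctrl, MKO and DKO library in 6 of 6 TKO libraries.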

How the results depend on the processing

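All alternatives were planned. Of the 8 tested genes, 6 to 7 were called higher in TKO than in Ctrl, 4 to 7 in TKO than in DKO and 7 to 8 in TKO than in MKO under every alternative, and none was called in DKO or MKO against Ctrl. In DKO against MKO, 1 gene (Xirp2) was called when only the groups compared were fitted, and 1 (Xirp2) in the authors' deposited table. In the difference of differences, 1 gene was called, against 2 with RLE size factors, 2 with sex as a term, 2 without Ctrl 3 and DKO 1, 5 with DESeq2 and 0 to 5 when libraries were left out in turn. Same replicate numbers paired libraries at most in part. Of 36 pairs, 14 correlated above 0.1, from -0.22 to 0.64, and 6 of 24 libraries correlated best with their own number. All pairs of replicate numbers 1 (0.048 to 0.245) and 2 (0.026 to 0.642) were positive, while those of 3 to 6 ran from -0.218 to 0.293. A shared preparation was not tested. With the replicate number as a block, 4 genes were called in the difference of differences, and Ankrd23 in TKO against DKO (adjusted p = 0.0461), while the counts over all genes there were 82 higher and 93 lower, against 49 and 8.

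Log2 ratios that were not called changed sign under some alternatives. With sex as a term, they were -0.028 for Xirp1 in TKO against Ctrl, -0.087 for Sorbs2 in DKO against Ctrl, -0.0053 for Ankrd1 in MKO against Ctrl and -0.027 for Nrap in DKO against MKO. Without Ctrl 3 and DKO 1, they were 0.068 for Lmo7, 0.1 for Nrap and 0.021 for Synpo2l in DKO against Ctrl, 0.078 for Ankrd23 in MKO against Ctrl, and 0.095 for Xirp1 and 0.1 for Sorbs2 in DKO against MKO. Synpo2l in MKO against Ctrl was -0.0049 with RLE size factors or DESeq2, -0.0012 without the filter and -0.005 with only the groups compared. Leaving out libraries in turn gave -0.045 to 0.13 for Xirp1 in TKO against Ctrl. In DKO against Ctrl it gave -0.054 to 0.26 for Ankrd23, -0.038 to 0.13 for Sorbs2, -0.065 to 0.088 for Lmo7 and -0.07 to 0.066 for Nrap. In MKO against Ctrl it gave -0.1 to 0.093 for Ankrd1, -0.24 to 0.079 for Ankrd23, -0.011 to 0.088 for Sorbs2 and -0.059 to 0.062 for Synpo2l. In DKO against MKO it gave -0.15 to 0.097 for Xirp1, -0.081 to 0.1 for Sorbs2 and -0.013 to 0.14 for Nrap. The cause was not tested.

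Counts over all tested genes moved by more than 1.5 times. Genes called in TKO against Ctrl numbered 734 lower, against 1269 without Ctrl 3 and DKO 1. In DKO against Ctrl there were 37 higher and 41 lower, against 85 and 102 with sex as a term, 69 and 98 with DESeq2 and 13 higher with only the groups compared. In MKO against Ctrl edgeR called 0 and DESeq2 1 lower. In TKO against DKO there were 511 higher and 273 lower, against 803 and 436 without Ctrl 3 and DKO 1, 216 and 53 with only the groups compared, and 480, 458 and 171 lower with sex as a term, DESeq2 and no filter. In TKO against MKO there were 796 higher and 843 lower, against 1487 and 1405 without Ctrl 3 and DKO 1 and 1404 lower with only the groups compared. In DKO against MKO there were 37 higher and 60 lower, against 210 and 156 with sex as a term, 138 and 110 with DESeq2 and 15 and 33 with only the groups compared. In the difference of differences there were 49 higher and 8 lower, against 74 and 25 with sex as a term, 94 and 36 without Ctrl 3 and DKO 1, 120 and 71 with DESeq2 and 3 lower without the filter. Ankrd2, at 0 to 5 counts per library, is limited by depth.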
